A study of Mus musculus with 6 samples.

Results

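The genes described here make, store and degrade glycogen in the liver. They are 9 genes chosen by name: Gyg, Ugp2, Gys2 and Gbe1 of the synthetic route, Pygl and Phka2 of the degradative route, and Ppp1r3b, Ppp1r3c and Ppp1r3g, which encode subunits that bring protein phosphatase 1 to glycogen. A probe belonged to a member if its RefSeq accession on the array mapped to that gene. All 9 were found, with 13 probes in all, among 22911 genes named on the array.

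The livers came from 6 male mice, 3 with a liver-specific Elovl6 knockout (LKO) and 3 controls that the sample titles call Flox, with 1 array per mouse (n = 3 per group throughout). Elovl6 encodes the elongase that lengthens palmitate to stearate. Both groups were on high-sucrose food (14 days) and were fasted for 4 hours before sampling. Strain, age and the promoter that drives the recombinase are not given in the sources used here, nor is it said whether other floxed alleles were carried. The question is which transcripts of glycogen metabolism differ in the liver when this elongase is missing during sugar feeding.

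Glycogen is the liver's store of glucose. Glycogenin primes each particle, glucose enters as UDP-glucose, glycogen synthase lengthens the chains and the branching enzyme adds branch points. Phosphorylase, switched on by phosphorylase kinase, releases glucose phosphate again. Phosphorylation turns synthase off and phosphorylase on, and protein phosphatase 1, held on the particle by its glycogen-targeting subunits, reverses both. In the liver this store is filled after feeding and drawn on in fasting.

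Values are scaled signals, in array units. A scaled signal is the array's processed signal brought to a common 75th percentile, and it cannot be set against the signal of another probe. A change is the mean log2 value of the LKO mice minus that of the controls, so a negative change means lower in LKO. The targeted gene Elovl6 was between 6014 and 12027 in the controls and between 64.3 and 102 in the LKO mice (log2 change -6.51 ± 0.30, SE, limma adjusted p = 0.00253). Hepatocyte markers were all measured, 15 of 15, and their summed level relative to the control mean was between 0.98 and 1.02 in the controls and between 1.04 and 1.08 in LKO. Skeletal muscle markers (2 of 7 tested) stood apart in control 3, with a summed level of 2.69 relative to the control mean against 0.14 to 0.17 in the other 5 mice, and Tnni2, a muscle troponin, was 1380 there against 48.1 to 71.7 elsewhere. Adipocyte markers (2 of 5 tested) summed to 1.72 in control 3 and to 0.45 to 0.91 in the other mice. The bright Lep probe, between 395 and 486 in all 6 mice, makes up most of that sum outside control 3. Cfd was 899 in control 3, 266 in control 1 and 309 in LKO 2, against 16.9 to 47.8 in the remaining mice. Adipoq was 150, 32.2 and 22.0 in the same mice, against 3.71 to 6.99. Plin1 was 21.8 in control 3 and 4.01 to 4.83 elsewhere. Of 12 macrophage markers, 12 had higher values in LKO (summed level 0.86 to 1.18 in controls and 1.06 to 1.29 in LKO). Their median log2 change was 0.22, and 2 of the 12 were higher without overlap. Of the 15 hepatocyte markers, 13 were higher too, with a median log2 change of 0.07. Their sum holds bright probes with unlike changes, Fgb at 0.37, Ambp at 0.22, Alb at 0.01 and Ttr at -0.16. Of 6 neutrophil markers tested, 4 were higher (median change 0.70, log2). S100a8 (2.43), S100a9 (2.21) and Retnlg (1.23) were higher without overlap at an unadjusted limma p under 0.05. Of all genes tested, 8.16% were higher without overlap and 5.59% were higher at that p. Camp (0.18) and Elane (-0.19) had overlapping groups. S100a8 was 59.4 to 130 in the controls and 206 to 1122 in LKO. The summed neutrophil level (0.92 to 1.07 in controls and 0.99 to 1.16 in LKO) is mostly the bright Csf3r probe (log2 change -0.04), and Mpo, Ngp and Cxcr2 were not above background on any array. All 5 erythroid markers tested were higher (0.85 to 1.21 and 0.95 to 1.52). Whether these other cells had a part in the results below was not tested, apart from the values given without control 3.

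Promoter sequences are shown for the genes whose values were lower in all LKO mice than in all controls, and for Ppp1r3c, the member with an unadjusted p under 0.05 beside them. RefSeq windows from 250 bases before to 50 after a start site (GRCm38.p6) matched 7 of the 9 members, with 8 windows, since Ugp2 has 2 starts. The windows shown are Gyg at chr3:20155067-20155366, Ugp2 at chr11:21371218-21371517, Pygl at chr12:70227634-70227933 and Ppp1r3c at chr19:36736555-36736854, all on the minus strand, and Gbe1 at chr16:70313699-70313998 on the plus strand. Capitals mark the E-box, the CCAAT box and the GC box on either strand.
Gyg: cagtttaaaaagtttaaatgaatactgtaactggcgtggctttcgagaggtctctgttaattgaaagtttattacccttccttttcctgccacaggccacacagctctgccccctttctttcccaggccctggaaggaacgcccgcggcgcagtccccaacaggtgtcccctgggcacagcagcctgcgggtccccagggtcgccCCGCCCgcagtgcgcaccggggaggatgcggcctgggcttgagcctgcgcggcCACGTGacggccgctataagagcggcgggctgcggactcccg
Ugp2: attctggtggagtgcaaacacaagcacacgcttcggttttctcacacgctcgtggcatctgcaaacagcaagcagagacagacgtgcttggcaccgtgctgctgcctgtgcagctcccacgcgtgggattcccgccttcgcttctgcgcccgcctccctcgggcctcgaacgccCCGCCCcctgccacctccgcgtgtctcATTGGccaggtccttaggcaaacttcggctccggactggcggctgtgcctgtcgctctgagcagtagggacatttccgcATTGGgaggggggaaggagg
Gbe1: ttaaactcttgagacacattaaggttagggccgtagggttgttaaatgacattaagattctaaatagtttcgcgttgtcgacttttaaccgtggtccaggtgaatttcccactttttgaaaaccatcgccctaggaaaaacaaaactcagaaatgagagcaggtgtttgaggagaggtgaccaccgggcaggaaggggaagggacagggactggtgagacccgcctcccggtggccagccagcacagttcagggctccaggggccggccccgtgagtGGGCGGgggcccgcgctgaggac
Pygl: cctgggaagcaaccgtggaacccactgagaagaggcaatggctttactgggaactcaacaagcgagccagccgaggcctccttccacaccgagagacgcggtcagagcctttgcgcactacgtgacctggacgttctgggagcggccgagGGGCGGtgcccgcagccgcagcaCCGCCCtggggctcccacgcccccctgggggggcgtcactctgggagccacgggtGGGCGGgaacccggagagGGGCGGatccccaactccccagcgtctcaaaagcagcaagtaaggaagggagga
Ppp1r3c: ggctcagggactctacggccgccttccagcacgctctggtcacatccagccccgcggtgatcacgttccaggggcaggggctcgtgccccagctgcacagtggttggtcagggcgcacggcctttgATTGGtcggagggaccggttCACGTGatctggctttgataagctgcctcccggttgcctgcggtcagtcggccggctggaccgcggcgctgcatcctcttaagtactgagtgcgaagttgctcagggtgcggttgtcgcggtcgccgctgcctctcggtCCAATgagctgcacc

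The E-box, CACGTG, which basic helix-loop-helix factors can bind, was in the windows of Gyg and Ppp1r3c, 2 of 8, and in 7.15% of all 32851 windows. It began 9 bases after the start in Gyg and 104 bases before it in Ppp1r3c. CCAAT was in windows of Ppp1r3c, Ppp1r3g and Ugp2 (3 of 8, against 37.4% of all windows). The GC box, GGGCGG, was in 7 of 8 windows against 35.7% of all. The 8 windows held between 54.3% and 76% G and C, above the median window at 52.7%. TTGCNNAA, a C/EBP site, was in 1 Ugp2 window, against 10.8% of all. The TATA box TATAAA (13.6% of all windows), the cAMP response element TGACGTCA (1.79%), the sterol element TCACNCCAC (1.24%), the forkhead site GTAAACA (3.65%) and the DR1 repeat of nuclear receptors (0.0396%) had no match in these 8 windows. Both strands were searched for all 9 motifs, and no matches in the 8 windows overlapped. The matches are letters in a window and not measured binding.

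**Figure D1:**
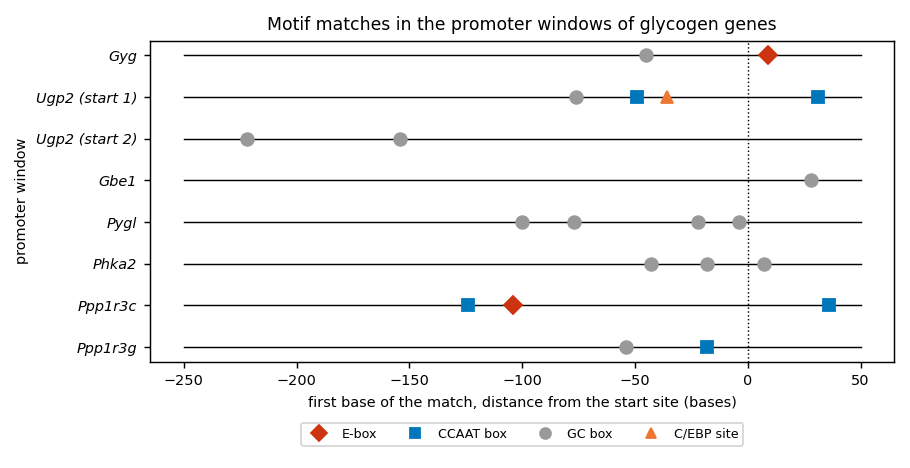
Motif matches in the 8 promoter windows of 7 glycogen genes, placed by the distance in bases of the first base from the start site (dotted line at 0). The E-box is seen only in Gyg and Ppp1r3c among these windows, and GC boxes in all but the Ppp1r3c window.

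Across the set, 7 of 9 members had lower values in LKO and 2, Gys2 and Ppp1r3b, had higher values, where 49.0% of all 14171 genes tested were lower and 51.0% higher. The median member change was -0.23, and that of all genes tested was 0.004 on the same log2 scale. For 4 of 9 members, Gyg, Ugp2, Gbe1 and Pygl, each LKO value lay below each control value, and lower values without overlap were found in 9.03% of all genes. None of the 9 was higher without overlap, which held for 8.16% of genes, or 17.2% in either direction. With the authors' value table, 2 members were lower (Gyg and Gbe1) and 1 higher (Ppp1r3b) without overlap, and with normexp the 4 were Ugp2, Gbe1, Pygl and Ppp1r3c. No member passed an adjusted p of 0.05 in limma (0 of 9, adjusted p between 0.284 and 0.732), where 0.0141% of genes did. At an unadjusted p under 0.05 there were 4 of 9 members, Ugp2, Gbe1, Pygl and Ppp1r3c, all lower, against 5.56% of genes lower and 5.59% higher at that level, 11.1% in either direction. That count was 1 without control 2, without control 3 or with the authors' value table (Gbe1 each time). It was 2 with dim probes kept (Ugp2 and Gbe1), without LKO 2 (Gbe1 and Ppp1r3c) or without LKO 3 (Gbe1 and Ppp1r3g). It was 3 with quantile normalization (Ugp2, Gbe1 and Pygl) or without control 1 (Ugp2, Gbe1 and Ppp1r3c). Without LKO 1 it was 5, with Ugp2, Gbe1, Pygl and Phka2 lower and Ppp1r3b higher. There 1938 of 14262 genes had such a p. No such count is given for the slide column fit, which sets LKO 1 alone against the controls. Its log2 changes were -0.29 for Gbe1, -0.18 for Ugp2, -0.09 for Pygl and -0.86 for Ppp1r3c. In RNA of whole liver, fewer cells of a type and less RNA per cell cannot be told apart. All 9 members were well above background on all 6 arrays with every probe, so no member was lost to the filter on dim probes.

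**Figure D2:**
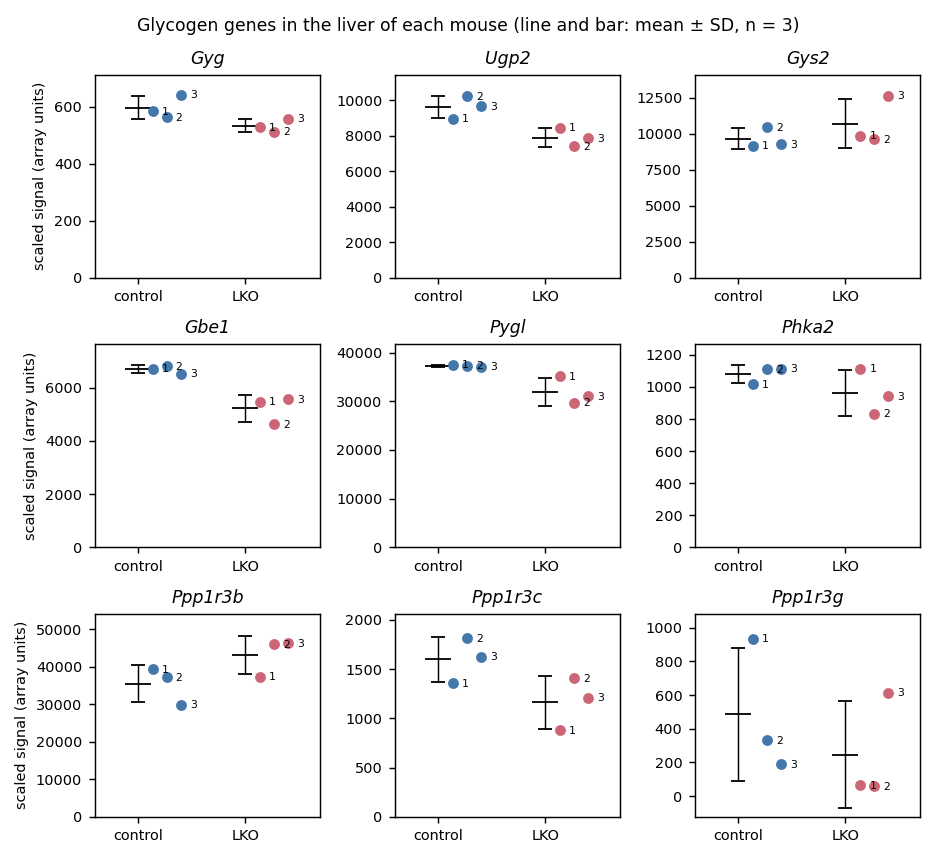
Scaled signal (array units, linear axis) of the 9 glycogen genes in each control (blue) and LKO (red) mouse, numbered by replicate, with the group mean and SD (n = 3). Gyg, Ugp2, Gbe1 and Pygl show LKO points below every control point, and Ppp1r3g spreads widely in both groups, with an SD bar that crosses 0 in LKO.

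Gyg encodes glycogenin, the protein that primes a new particle. Control mice had scaled signals of 584, 562 and 641, and LKO mice of 528, 512 and 558. The highest LKO value, in LKO 3, lay just under the lowest control value. Its log2 change was -0.16 ± 0.09 (SE, limma adjusted p = 0.569), or 1.12-fold lower, and -0.11 without control 3. A second, dimmer probe read 64.6, 72.4 and 79.1 for control mice and 67.8, 59.9 and 62.3 for LKO mice. It gave a change of -0.18, and its groups overlapped through LKO 1.

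Ugp2 encodes UDP-glucose pyrophosphorylase, which makes the activated glucose that synthase adds. Control mice had 8943, 10231 and 9655, and LKO mice 8441, 7394 and 7845. The LKO mice were all below the controls, LKO 2 lowest. This gave a log2 change of -0.28 ± 0.09 (SE, limma adjusted p = 0.361), 1.22-fold lower, and -0.18 once slide column was a covariate.

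Gbe1 encodes the branching enzyme, whose branch points make the particle soluble and open to attack from many ends. Among the members it had the smallest p. Control mice read 6713, 6810 and 6515, and LKO mice 5469, 4632 and 5554. The controls were close together and the LKO mice were all lower, again with LKO 2 lowest. On the log2 scale the change was -0.36 ± 0.10 (SE, limma adjusted p = 0.284, unadjusted 0.00862), or 1.28-fold lower. The other Gbe1 probe gave -0.41, with 783, 863 and 786 for control mice and 648, 545 and 635 for LKO mice, also without overlap. Permuting the 6 Gbe1 values over the mice (exact, two-sided) gave p = 0.1, the smallest that 3 mice against 3 allow.

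Gys2, the liver isoform of glycogen synthase, had a higher mean in LKO, where these neighbours in the route had lower ones. Control mice read 9158, 10476 and 9293, and LKO mice 9859, 9623 and 12645. LKO 1 and LKO 2 lay within the control range and LKO 3 above it. Its mean log2 change was 0.14 ± 0.13 (SE, limma adjusted p = 0.732), with a 95% confidence interval from -0.17 to 0.45. Without LKO 3 it was 0.02. Whether the Gys2 change differs from that of the other members was not tested.

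Pygl encodes the liver phosphorylase, which cuts glucose from chain ends. Control mice read 37556, 37304 and 37125, and LKO mice 35139, 29691 and 31004. The controls lay within a narrow band, with an SD of 0.0084 on the log2 scale against 0.13 in LKO, and the LKO mice were all below it. Between groups the log2 change was -0.23 ± 0.09 (SE, limma adjusted p = 0.437), 1.17-fold lower. With the slide column as a covariate, which leaves LKO 1 against the controls, it was -0.09.

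Phka2 encodes the liver alpha subunit of phosphorylase kinase, a regulatory subunit. Its brightest probe read 1018, 1112 and 1115 for control mice and 1114, 832 and 944 for LKO mice. LKO 1 lay among the controls and LKO 2 and LKO 3 below them. The log2 change was -0.18 ± 0.12 (SE, limma adjusted p = 0.647). It was 0.04 with the slide column as a covariate, so its direction depended on that choice. The probes of Phka2 differed in direction by transcript, each with overlapping groups. A second probe of the same transcript gave -0.14, with 574, 501 and 517 for control mice and 532, 448 and 466 for LKO mice. The probe of another transcript gave 0.08, with 119, 119 and 136 for control mice and 141, 134 and 120 for LKO mice.

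The subunits that target protein phosphatase 1 to glycogen had values in different directions. Ppp1r3b, the liver form also called GL, had higher values in LKO, Ppp1r3c, also called PTG, had lower ones, and Ppp1r3g, whose product acts in liver after feeding, varied widely between mice. None of the 3 passed the adjusted threshold.

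Ppp1r3b read 39334, 37179 and 29876 for control mice and 37320, 46005 and 46322 for LKO mice. LKO 1 lay within the control range, and LKO 2 and LKO 3 above all controls. The log2 change was 0.29 ± 0.14 (SE, limma adjusted p = 0.517), with a 95% interval from -0.05 to 0.63. It was 0.17 without control 3, 0.08 once slide column was a covariate, 0.39 without LKO 1 and 0.37 without control 1.

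Ppp1r3c read 1354, 1813 and 1625 for control mice and 876, 1409 and 1209 for LKO mice. The groups overlapped only through LKO 2, which lay above control 1, and LKO 1 was the lowest mouse. The log2 change was -0.47 ± 0.20 (SE, limma adjusted p = 0.446, unadjusted 0.0482), or 1.39-fold lower. It was -0.28 without LKO 1 and -0.86 once slide column was a covariate, a fit that sets LKO 1 alone against the controls.

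Ppp1r3g varied more between mice of a group than any other member, with log2 SDs of 1.16 in the controls and 1.91 in LKO. Control mice read 935, 332 and 191, and LKO mice 65.5, 59.4 and 614. LKO 1 and LKO 2 lay below all controls, and LKO 3 lay above control 2 and control 3. The log2 change was -1.54 ± 0.996 (SE, limma adjusted p = 0.622), with a 95% interval from -3.92 to 0.83. It was -2.64 without LKO 3 (unadjusted p = 0.00603, limma adjusted p = 0.372), -2.06 without control 3, -1.66 without control 2, -1.03 without LKO 1, -0.96 without LKO 2, -0.91 without control 1 and -1.02 with normexp.

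**Figure D3:**
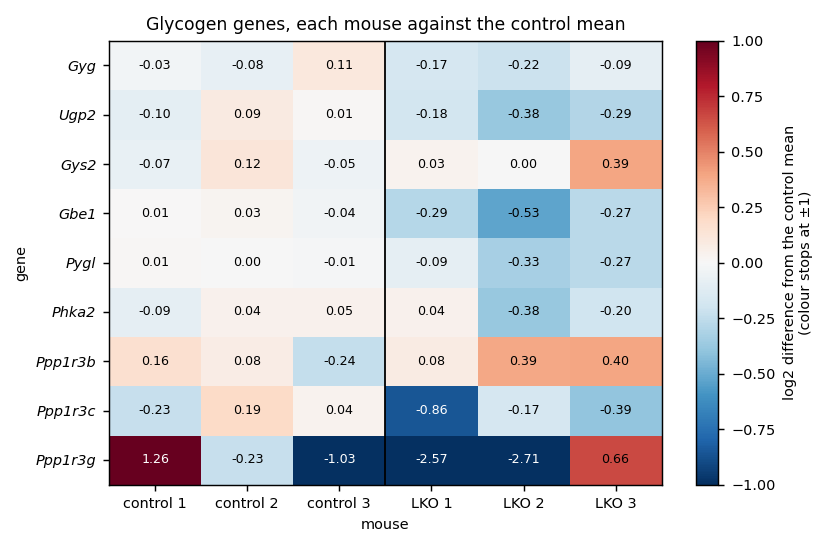
Log2 difference of each mouse from the control mean for the 9 glycogen genes, with controls left and LKO right of the line, and colour cut at 1 in either direction. Gyg, Ugp2, Gbe1 and Pygl are below 0 in all 3 LKO mice, LKO 1 is lowest for Ppp1r3c, and Ppp1r3g ranges from -2.71 to 1.26.

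The LKO mice differed in which members were lowest. The median difference of the 9 members from the control mean was -0.17 in LKO 1, -0.33 in LKO 2 and -0.20 in LKO 3, against -0.03 to 0.04 in the controls. LKO 2 had the lowest value of the 6 mice for Gyg, Ugp2, Gbe1, Pygl, Phka2 and Ppp1r3g. LKO 1 was closest to the controls for Pygl (-0.09) and Phka2 (0.04) and farthest for Ppp1r3c (-0.86). LKO 3 had the highest Gys2 (0.39) and Ppp1r3b (0.40) of all 6 mice. Control 3 had the highest muscle and adipocyte sums. It was the highest of the 6 mice for Gyg (0.11) and Phka2 (0.05) and the lowest for Ppp1r3b (-0.24). Without it the other changes were -0.28 for Ugp2, -0.38 for Gbe1, -0.23 for Pygl, -0.15 for Phka2, -0.45 for Ppp1r3c and 0.12 for Gys2.

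Other genes of glycogen metabolism were taken from a list of 43, all on the array, of which 37 were tested. Of these 21 had lower and 16 higher values, with a median change of -0.08. None passed an adjusted p of 0.05 (0 of 37 in limma), 5 were lower at an unadjusted p under 0.05 and 0 were higher, against 5.56% and 5.59% of all genes. Lower values without overlap were found in 7 of the 37 and higher ones in 2, against 9.03% and 8.16% of all genes. The log2 changes of these genes and the members, with their intervals, are plotted by role.

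**Figure D4:**
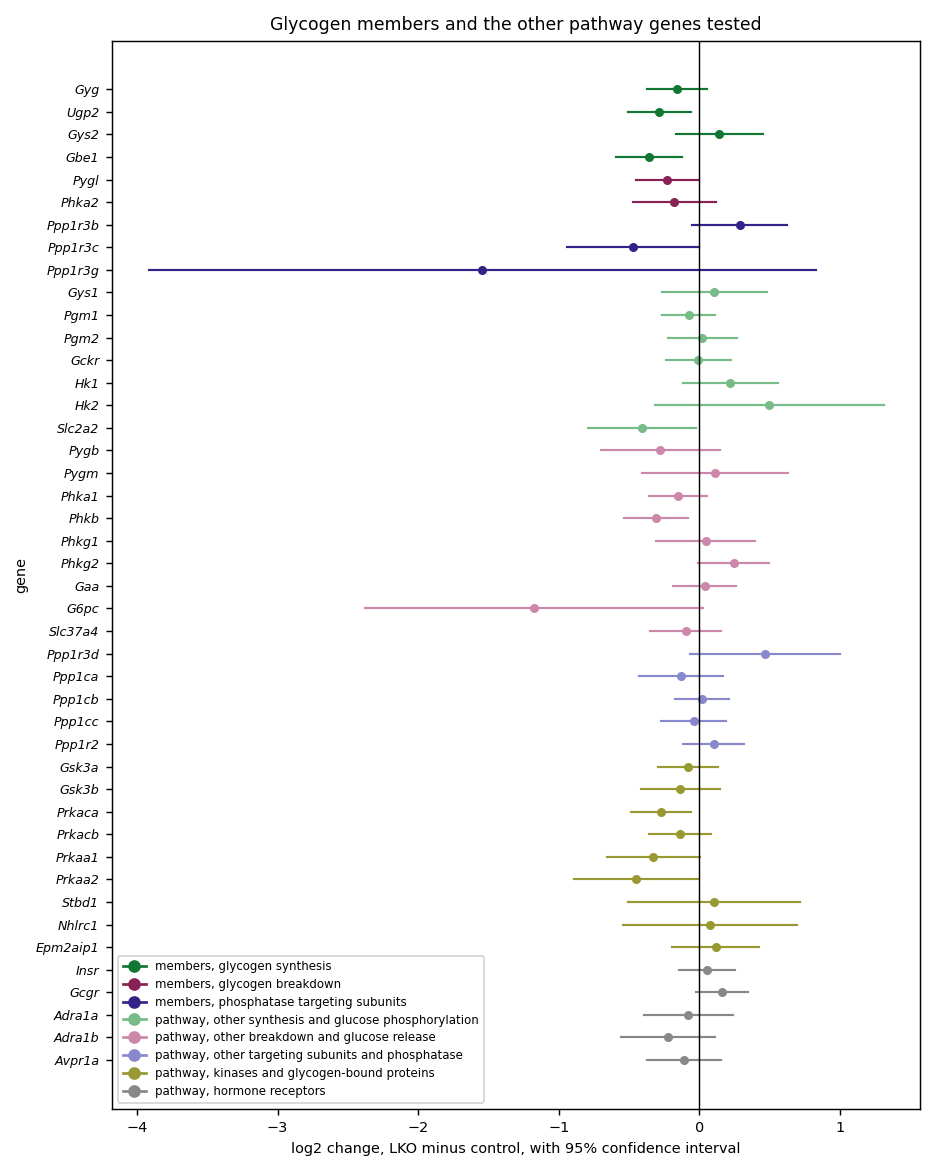
Log2 change, LKO minus control, with 95% confidence interval (n = 3 per group) for the 9 glycogen genes (dark colours) and 35 of the 37 other pathway genes tested (light colours), grouped by role. The intervals of 4 members (Ugp2, Gbe1, Pygl and Ppp1r3c) and of 4 other genes drawn (Slc2a2, Phkb, Prkaca and Prkaa2) lie wholly below 0, and that of Ppp1r3g is the widest among the members.

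Upstream of UDP-glucose, Slc2a2, the glucose transporter of hepatocytes, had a change of -0.41 ± 0.16 (SE, limma adjusted p = 0.431) and did not overlap, from 957 to 1125 in the controls and from 638 to 946 in LKO. Hk1, a hexokinase of most tissues, was at 0.22 ± 0.14 (SE) with overlapping groups, as was Gys1, the synthase of muscle and other tissues, at 0.11 ± 0.16 (SE). Gys1 had its highest signal of the 6 mice, 93.6, in control 3. In this list of 8 genes, 4 were higher and 4 lower.

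On the degradative side, 6 of 10 listed genes were lower. The subunits of phosphorylase kinase differed in direction. Phkb, the beta subunit, was lower in every LKO mouse (353 to 407 in the controls and 282 to 317 in LKO, change -0.31 ± 0.10, SE), and Phkg2, the catalytic subunit of liver, was higher in every one (1126 to 1289 and 1319 to 1551, change 0.24 ± 0.10, SE). Neither passed, with limma adjusted p of 0.332 and 0.460. G6pc, the phosphatase that frees glucose for export, spanned 9953 to 24345 in the controls and 3266 to 10209 in LKO, with a change of -1.18 ± 0.50 (SE, limma adjusted p = 0.459). Its groups overlapped, since LKO 1 lay above control 3. The brain and muscle phosphorylases Pygb and Pygm were at -0.28 ± 0.18 and 0.11 ± 0.22 (SE), both with overlapping groups, and Pygm was 309 in control 3, within the range of 211 to 376 of the LKO mice.

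Of 9 other phosphatase genes, 5 were tested, 3 of them higher and 2 lower, and none had an unadjusted p under 0.05. Ppp1r3d, another targeting subunit, was at 0.47 ± 0.22 (SE), Ppp1r2, an inhibitor of the phosphatase, at 0.10 ± 0.09 and Ppp1ca, a catalytic subunit, at -0.13 ± 0.12. Ppp1r3a, the muscle targeting subunit, Ppp1r3e, Ppp1r3f and the inhibitor Ppp1r1a were not above background on any array. Among 9 tested kinases and glycogen-bound proteins, 6 were lower. Prkaca, the catalytic subunit of the cAMP-dependent kinase that starts glycogen breakdown, was lower without overlap (3043 to 3372 in controls and 2478 to 2787 in LKO, change -0.27 ± 0.09, SE, limma adjusted p = 0.352). Prkaa2 and Prkaa1, catalytic subunits of the AMP-activated kinase, were at -0.45 ± 0.19 and -0.33 ± 0.14 (SE), both with overlapping groups. Of the 5 hormone receptors tested, 2 were higher and 3 lower. Gcgr, the glucagon receptor, was higher in every LKO mouse (22548 to 24013 in controls and 25494 to 26889 in LKO), by 0.16 ± 0.08 (SE, limma adjusted p = 0.515). Adra1b and Avpr1a, receptors for adrenaline and vasopressin, were at -0.22 ± 0.14 and -0.11 ± 0.11 (SE).

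Patterns over the 6 arrays were compared by Pearson's r, as a description. Those most like Gys2 were Ifrd2, Taok2 and Sla (r = 0.989, 0.988 and 0.984), and those most like Pygl were Lonrf3, Dll4 and Stard4 (r = 0.995, 0.992 and 0.989). Over only 6 arrays an r above 0.9 was reached with Gys2 by 185 and with Pygl by 348 of 14169 genes, and the Pygl values are split by group.

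The member changes were also computed under 16 other settings. Of the 9 members, 8 kept their direction under all of them, and Phka2 turned with the slide column as a covariate. Some settings could not turn a member. The other filters on dim probes, the trend and robust eBayes and the replicate block leave each member change as it was. The mean over probes does so for members with 1 probe.

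**Figure D5:**
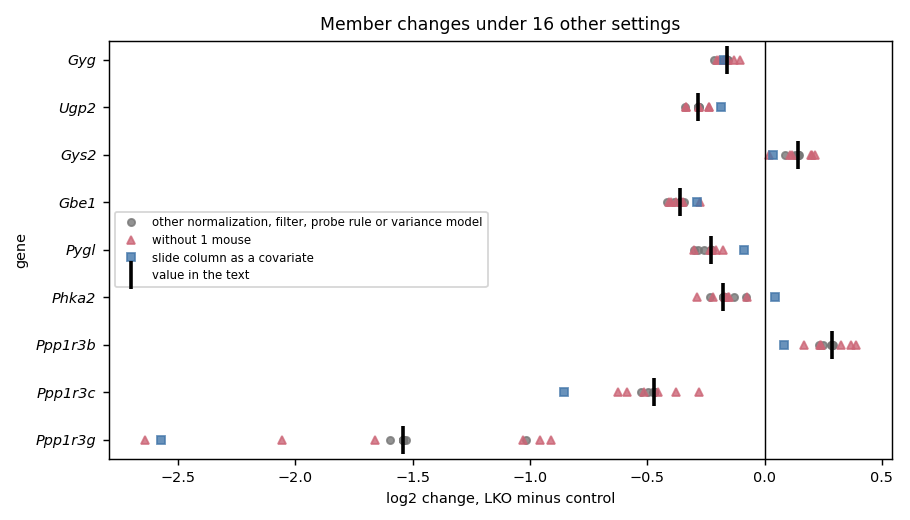
Log2 change of each of the 9 glycogen genes as given in the text (black bar) and under 16 other settings, with circles for other processing and the replicate block, triangles for fits without 1 mouse and squares for the slide column as a covariate. Gyg, Gbe1 and Ugp2 each stay within a narrow band below 0, and the values of Ppp1r3g spread from -2.64 to -0.91.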

How the data were processed

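Liver RNA of 3 control and 3 LKO mice was hybridized to 1-colour Agilent arrays, 1 per mouse, from 0.1 µg of total RNA per the labels' protocols. The scanner images were read with Agilent Feature Extraction 11.5.1.1, per the submitters' processing notes. The deposited processed signals are intensities already corrected for background, per the file headers, and quality flags come with them. The authors' value table is the same intensity times 1 constant per array, with no reason for that constant stated. Its columns without a sample numbered 0. There was 1 slide and 1 scan. Controls and LKO 1 lay in slide column 1, and LKO 2 and LKO 3 in column 2. Spots well above background made up 52.1% to 56.6% of 59305, no spot was saturated, and the number of arrays limits the precision.

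Each array's processed signals were put on the log2 scale and its own 75th percentile was subtracted, which lay between 285 and 294 in the controls and between 263 and 270 in LKO. Without this scaling, LKO values would be lower by 0.11 on the log2 scale. Control spots and outlier spots (64 to 111 per array) were left out, and spots of a probe were averaged. Accessions were matched without versions to RefSeq genes of GRCm38.p6, which named 58.3% of the 56605 probes. The array headers name an earlier build, so gene coordinates are not printed, and promoter windows carry the build of their own table. A gene was represented by its brightest probe and was tested where that probe passed the background flag on every array of either group, which kept 14171 genes. The test was limma's (version 3.58.1, R 4.3.3; lmFit, then eBayes), two-sided and without a block. Its p-values were adjusted by Benjamini-Hochberg across the 14171 genes, with calls at 0.05.

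The members and lists were chosen with earlier results of these data known. Named were Elovl6, all members, G6pc, Gys1, Pygb and Pygm, and up to 3 genes with the smallest p per pathway list. The counts over the pathway lists include 2 genes whose own values are not reported here. For Gys2 and Pygl the 3 genes with the highest r were added. Marker genes named in the text were chosen after their values were seen. Lymphocyte, endothelial, stellate, bile duct and pancreas markers were measured too, with median log2 changes of 0.01, -0.02, -0.02, -0.01 and 0.31. Only 2 of 6 pancreas markers were tested, both with overlapping groups. Prss2, Amy2b, Pnlip and Ins2 were not above background on any array. Alternatives were other scalings, background correction, filters, probe rules, variance model, a block, the slide column and leaving out each mouse. Normexp was planned on mean foreground intensities, which the data used here do not hold. It used median foreground and background intensities, as deposited, and this setting was chosen after seeing the data. Mice are separate animals as far as the titles say. Each limma p-value sets a group difference against the spread between mice, moderated over all genes tested.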

Additional observations from a re-analysis of the deposited data

How the results depend on the processing

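The count of members that passed was 0 under all 16 alternatives, and 7 of 9 members stayed lower, or 6 of 9 with the slide column as a covariate, where the Phka2 log2 change turned to 0.043. The median member change lay between -0.29 and -0.17. Settings that altered only the filter, the variance model or the block could not alter these directions or changes. Over all genes, 2 passed, against 16 with normexp (chosen after seeing the data), and 1 each with no filter on dim probes, with probes well above background on all 6 arrays, with trend and robust eBayes and with the slide column. Leaving out 1 mouse gave between 1 (without control 2, control 3 or LKO 3) and 15 genes (without LKO 1), with 4 without control 1. Members without overlap numbered 4, and between 3 and 6 over the alternatives. With all mice such genes made up 13.3% to 18.3% of all genes tested, and with 1 mouse left out 25.3% to 31.9%, where the settings with 6 members (without control 1 or LKO 1) had 31.7% and 31.9%. The deviations of same-numbered mice had correlations of 0.04, -0.05 and -0.07, and 1 of 3 matched its own number best. The titles do not say whether same-numbered mice were paired. With 3 mice per group these correlations cannot decide it. With the replicate block 3 genes and 0 members passed, 2 members had an unadjusted p under 0.05 (Gbe1 and Ppp1r3c) against 4 without it, and the median change was -0.23. The slide column fit sets LKO 1 alone against the controls.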
